A study of Caenorhabditis elegans with 4 samples.

Results

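Ligand-gated ion channel genes were followed in whole first-stage (L1) larvae of Caenorhabditis elegans. The members were the rows of the count table whose WormBase gene name is acr, lgc, glr, nmr, glc or avr with a number, or is one of 11 named subunit genes (unc-29, unc-38, unc-63, lev-1, lev-8, deg-3, des-2, eat-2, unc-49, exp-1 and mod-1). Of the 20392 genes in the table, 16771 passed a filter on low counts. The rule found 99 of these and 5 further genes that did not pass. Total RNA came from 2 genotypes with 2 libraries each. Wild type was strain GW1 / N2 (Bristol). The mutant was strain GW1125, which carries the lsm-8 allele xe17 (a myo2p::mcherry::unc54 3'UTR insertion) on chromosome IV and is kept over nT1[qIs51](IV;V), in which chromosomes IV and V have exchanged arms and a green marker labels carriers. Homozygous mutant larvae thus had balanced heterozygous mothers. In both genotypes eggs hatched for 16 hours in buffer without food, non-green animals of L1 size were sorted out, and these were given food for 2.5 hours. Each genotype was 1 strain of pooled larvae. Whether the libraries of a genotype were grown separately is not stated, and p-values here measure only the spread between these samples, and that spread can be technical.

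Ligand-gated ion channels open when a transmitter binds and let ions cross the membrane within milliseconds. In nematodes most of them are pentamers of the cys-loop family, which includes the nicotinic acetylcholine receptors and channels gated by GABA, glutamate, monoamines, betaine and choline, while the AMPA, kainate and NMDA types of glutamate receptor are tetramers of another family. Cation channels of these families excite neurons and muscle, and chloride channels inhibit them. The worm's body wall muscle uses both kinds, with acetylcholine receptors for contraction and a GABA receptor for relaxation, and glutamate-gated chloride channels are the targets of ivermectin.

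The protein LSM-8 belongs to a nuclear ring of Sm-like proteins that binds RNA, and the comparison addresses how transcript levels differ between larvae of the lsm-8 mutant and wild type. Library totals ran from 50755251 to 101230177 counts, and the 2 mutant libraries were the deeper ones. The lsm-8 gene had 15.4 and 15.9 CPM (read counts scaled to a common depth with TMM library sizes) in wild type, while the mutant had 3.25 and 3.73 CPM (log2 fold change -2.17, SE 0.11, edgeR adjusted p = 3.85e-11). A count of 3, taken as the floor that a count of 0 allows, corresponds to 0.0563 and 0.0600 CPM in wild type and to 0.0293 and 0.0323 CPM in the mutant, for counting error only.

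Of the 99 members tested, 22 were higher and 7 lower in the lsm-8 mutant by edgeR's quasi-likelihood test at a Benjamini-Hochberg adjusted p under 0.05 over all genes. The share of members called, 29.3%, was near the 28.2% of all tested genes. By direction, 22.2% of members were called higher against 13.5% of all genes, and 7.07% were called lower against 14.8% of all genes. The median log2 fold change (mutant over wild type) was 0.10 over the members, with the middle 50% between -0.11 and 0.26, and -0.01 over all tested genes. These shares and medians are descriptions, and the difference between the members and other genes was not tested. The share of calls that were higher moved with scaling. For the members it was 75.9% with TMM, 89.7% with library totals and 89.3% with upper quartile scaling, and for all genes it was 47.7%, 60.5% and 56.6%. With DESeq2, which differs in test and filter as well as in scaling, it was 94.4% of 18 calls for the members and 47.97% for all genes.

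Most changes were small. Only glc-1 differed by a log2 fold change of 1 or more in size, and 20 of the 29 called members differed by less than 0.5. Both mutant libraries lay above both wild-type libraries for 47 members, against 30.9% of all tested genes, and below them for 19 members, against 31.9%. Of the 29 calls, 11 held in each of 11 other ways of processing (other scaling, filters and tests, a correction for gene length and the loss of each library in turn), and these were acr-8, acr-16, acr-23, lev-1, des-2, exp-1, lgc-41, lgc-55, glc-1, glc-2 and glr-5. Of these, glc-1 fell and the other 10 rose.

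**Figure D1:**
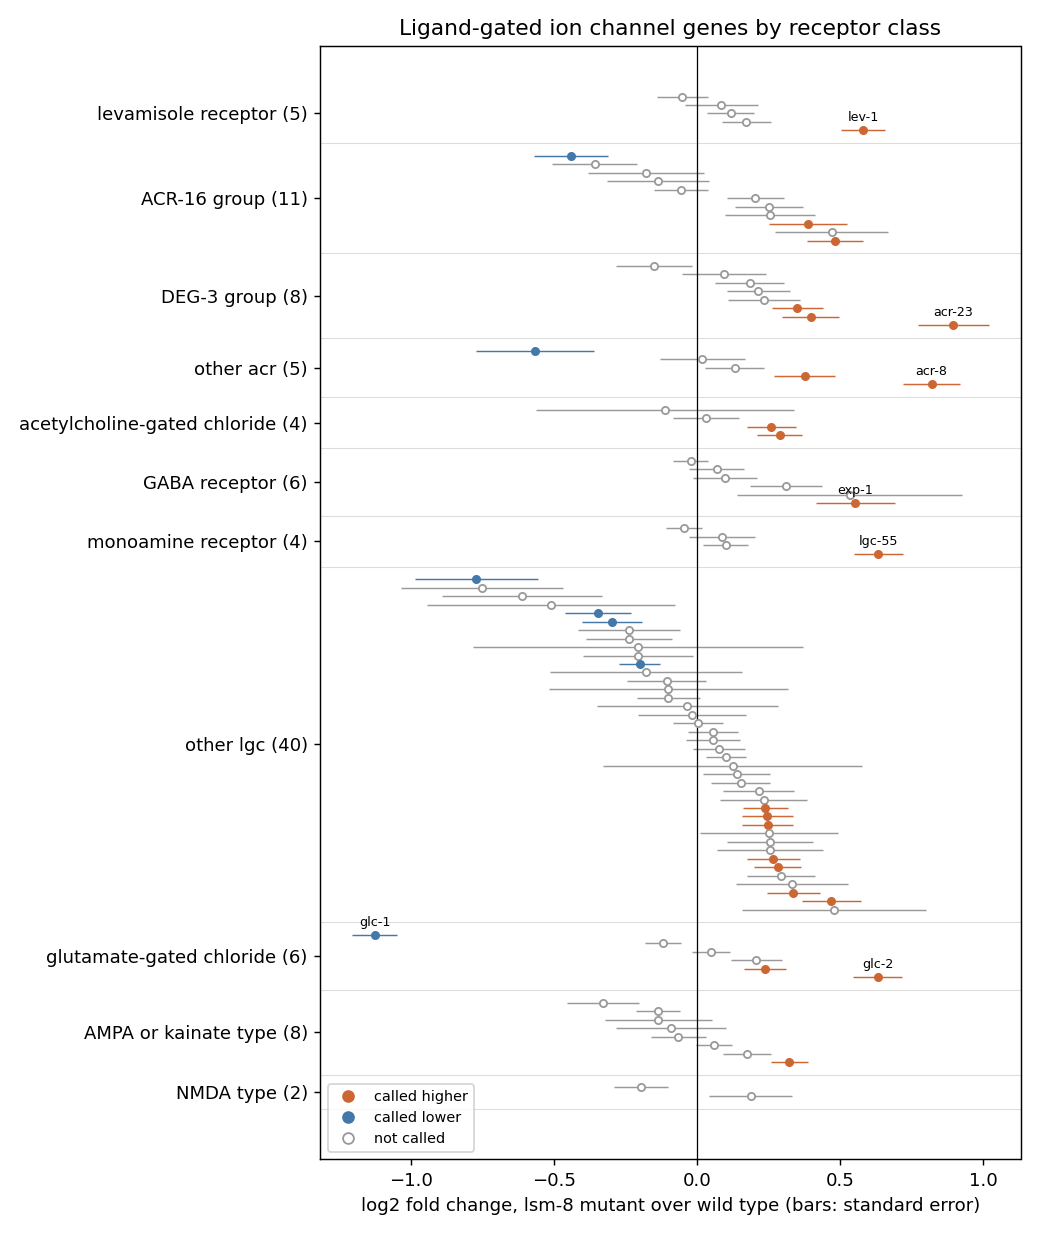
Log2 fold change (lsm-8 mutant over wild type, x axis) of the 99 tested members, grouped by receptor class on the y axis with the number tested in parentheses. Points are edgeR estimates with their standard errors, filled where the adjusted p is under 0.05; glc-1 at -1.13 is the only value beyond 1 in size, and acr-23 at 0.90 is the highest.

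The nicotinic-type receptor subunits held the 2 largest rises, those of acr-23 and acr-8. This family takes in channels with ligands other than acetylcholine, such as the betaine-gated ACR-23. Of its 29 members, 8 were higher, 2 lower and 19 not called, with a median log2 fold change of 0.18. By share 27.6% were higher and 6.90% lower, beside 13.5% and 14.8% of all tested genes, and the difference was not tested. The same shares of all tested genes stand beside the counts of each class below. The subunits were read in 4 groups. The first is the levamisole receptor of body wall muscle, a pentamer of UNC-29, UNC-38, UNC-63, LEV-1 and LEV-8 that is named for the anthelmintic that activates it. Of its 5 genes, 1 rose, 4 were not called, and the median was 0.12.

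Levels of lev-1 (WBGene00002974, chromosome IV), a non-alpha subunit, were 16.3 and 15.8 CPM in wild type, and the mutant had 24.18 and 24.01 CPM. Both mutant libraries were about equally high and lay well clear of wild type. The rise was 1.497-fold (log2 fold change 0.58, SE 0.08, edgeR adjusted p = 1.16e-05). The alpha subunit gene unc-63 stood at 13.3 and 12.8 CPM in wild type and at 14.4 and 15.0 CPM in the mutant (0.17, SE 0.09, adjusted p = 0.148). For unc-38, the other essential alpha subunit, the values were 17.03 and 15.6 CPM against 17.8 and 17.6 CPM (0.12, SE 0.08, adjusted p = 0.319). The essential non-alpha subunit gene unc-29 had 15.7 and 13.6 CPM in wild type and 13.96 and 14.4 CPM in the mutant, with overlapping groups (-0.05, SE 0.09, adjusted p = 0.735). The direction of unc-29 turned with library totals (0.0015) and without wild type replicate 1 (0.055). Groups also overlapped for lev-8, an alpha subunit, with 5.35 and 5.76 CPM against 5.30 and 6.49 CPM (0.09, SE 0.13, adjusted p = 0.674).

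Per kilobase of gene width, 4 of the 5 levamisole receptor genes lay close together in wild type, between 8.03 CPM per kb for unc-63 and 8.98 CPM per kb for unc-29, and lev-8 was lower at 3.21 CPM per kb. In the mutant lev-1 stood at 12.9 CPM per kb, above unc-38 at 9.14, unc-63 at 9.07, unc-29 at 8.68 and lev-8 at 3.40 CPM per kb. The share of lev-1 in the summed level per kb of the 5 genes was 22.8% and 23.5% in the wild-type libraries and 30.4% and 29.4% in the mutant libraries. The difference in this share was not tested, and an exact permutation test of 2 against 2 libraries can give a two-sided p of 0.333 at the lowest. On chromosome IV, which holds both lev-1 and lsm-8, 21.8% of all tested genes were called higher, against 13.5% over all chromosomes, and the part of this in the rise of lev-1 was not tested. Body wall muscle markers were also higher, 8 of 15 with a median of 0.20, and their part was not tested either.

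In the ACR-16 group, which is related to the vertebrate alpha7 receptor, 2 of 11 genes rose, 1 fell, 8 were not called, and the median was 0.20. The gene acr-16 (WBGene00000055, chromosome V) encodes the nicotine-sensitive, levamisole-insensitive receptor of body wall muscle. It stood at 8.43 and 7.67 CPM in wild type and at 11.1 and 11.4 CPM in the mutant, a 1.40-fold rise (0.48, SE 0.10, adjusted p = 0.00107). Its neighbour on the same strand, acr-15, was at 8.88 and 8.03 CPM against 9.62 and 9.88 CPM, higher in both mutant libraries but not called (0.20, SE 0.10, adjusted p = 0.144). An exon of acr-16 overlaps F25G6.8 on the other strand, which was not called (0.06, SE 0.07, adjusted p = 0.601).

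Levels of acr-25 were 3.36 and 4.16 CPM in wild type and 4.87 and 4.97 CPM in the mutant (0.39, SE 0.14, adjusted p = 0.0409). That call was lost without wild type replicate 1 (log2 fold change 0.24, adjusted p = 0.302), without mutant replicate 1 (0.0662) or 2 (0.101) and with DESeq2 (0.113). The gene acr-7 fell from 4.86 and 4.72 CPM to 3.53 CPM in both mutant libraries (-0.44, SE 0.13, adjusted p = 0.0164, and 0.0544 with DESeq2). Its exons overlap those of klp-3 on the other strand, which also fell (-0.33, SE 0.07) from 45.9 to 36.6 CPM, so the 2 genes may share reads if strand was not used in counting. The pharyngeal subunit gene eat-2, which sets the rate of pumping, stood at 2.53 and 2.34 CPM against 2.84 and 2.98 CPM (0.26, SE 0.16, adjusted p = 0.251). The most abundant member of the group per length, acr-19, had 6.85 CPM per kb in wild type and was not called (-0.05, SE 0.09, adjusted p = 0.720). Its log2 fold change ran from -0.16 to 0.05 when libraries were left out in turn, with the positive value without wild type replicate 2. The other 6 genes, acr-9, acr-10, acr-11, acr-14, acr-15 and acr-21, had log2 fold changes from -0.36 to 0.47, and none was called with all 4 libraries and TMM scaling. Of these, acr-11 was called without wild type replicate 2 (log2 fold change -0.47, adjusted p = 0.0300), and acr-9 without wild type replicate 1 (0.60, adjusted p = 0.0450) or without mutant replicate 1 (0.66, adjusted p = 0.0238).

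In the DEG-3 group, a nematode branch of the nicotinic family, 8 genes were matched by name, and the listed acr-22 was not. Of the 8 genes, 3 rose, 0 fell, 5 were not called, and the median was 0.23. The largest rise of all members was that of acr-23 (WBGene00000062, chromosome V), the betaine-gated cation channel on which the anthelmintic monepantel acts. Its levels were 3.55 and 3.56 CPM in wild type and 6.54 and 6.69 CPM in the mutant, a 1.86-fold rise (0.90, SE 0.12, adjusted p = 1.82e-05). The 2 libraries of each genotype were almost alike, and the log2 fold change stayed between 0.88 and 0.95 over the alternatives.

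The genes deg-3 and des-2 are transcribed together in an operon, and their products form a choline-sensitive receptor of sensory neurons. They are adjacent on the same strand of chromosome V and rose by like amounts. Levels of deg-3 were 8.63 and 8.23 CPM in wild type and 10.6 and 11.7 CPM in the mutant (0.40, SE 0.10, adjusted p = 0.00523). Those of des-2 were 11.2 and 11.7 CPM against 14.2 and 15.0 CPM (0.35, SE 0.09, adjusted p = 0.00575). The call of deg-3 was just lost without mutant replicate 2 (log2 fold change 0.32, adjusted p = 0.0529). The 5 other genes of the group, acr-5, acr-17, acr-18, acr-20 and acr-24, had log2 fold changes from -0.15 to 0.23.

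The 5 remaining acr genes held 2 that rose, 1 that fell and 2 that were not called, with a median of 0.13. The gene acr-8 (WBGene00000047, chromosome X), whose counterpart in the parasite Haemonchus contortus is a subunit of the levamisole receptor, stood at 6.25 and 6.67 CPM in wild type and at 11.5 and 11.3 CPM in the mutant. This was a 1.77-fold rise (0.82, SE 0.10, adjusted p = 5.00e-06), the largest but 1 among the members. Its exons overlap cdk-11.2 on the other strand, which was at 22.9 CPM in wild type, against 21.2 CPM in the mutant and was not called (-0.11, SE 0.08, adjusted p = 0.312).

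The gene acr-12, whose product is part of neuronal receptors in motor neurons, was at 7.70 and 7.63 CPM in wild type and at 9.25 and 10.7 CPM in the mutant (0.38, SE 0.11, adjusted p = 0.0115). Without mutant replicate 2 the call was lost (log2 fold change 0.27, adjusted p = 0.144). The gene acr-2, which encodes a partner of ACR-12 in cholinergic motor neurons, was at 8.13 and 7.57 CPM against 8.55 and 8.66 CPM (0.13, SE 0.10, adjusted p = 0.379), and its neighbour acr-3 was at 3.32 and 2.90 CPM against 3.09 and 3.22 CPM (0.02, SE 0.15, adjusted p = 0.941). The scarce acr-6 fell from 2.01 and 1.56 CPM to 1.22 and 1.20 CPM (-0.56, SE 0.21, adjusted p = 0.0487). Its call was lost in 7 of the 11 alternatives, among them without wild type replicate 1 (log2 fold change -0.37, adjusted p = 0.343), mutant replicate 1 (0.108) or mutant replicate 2 (0.123).

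**Figure D2:**
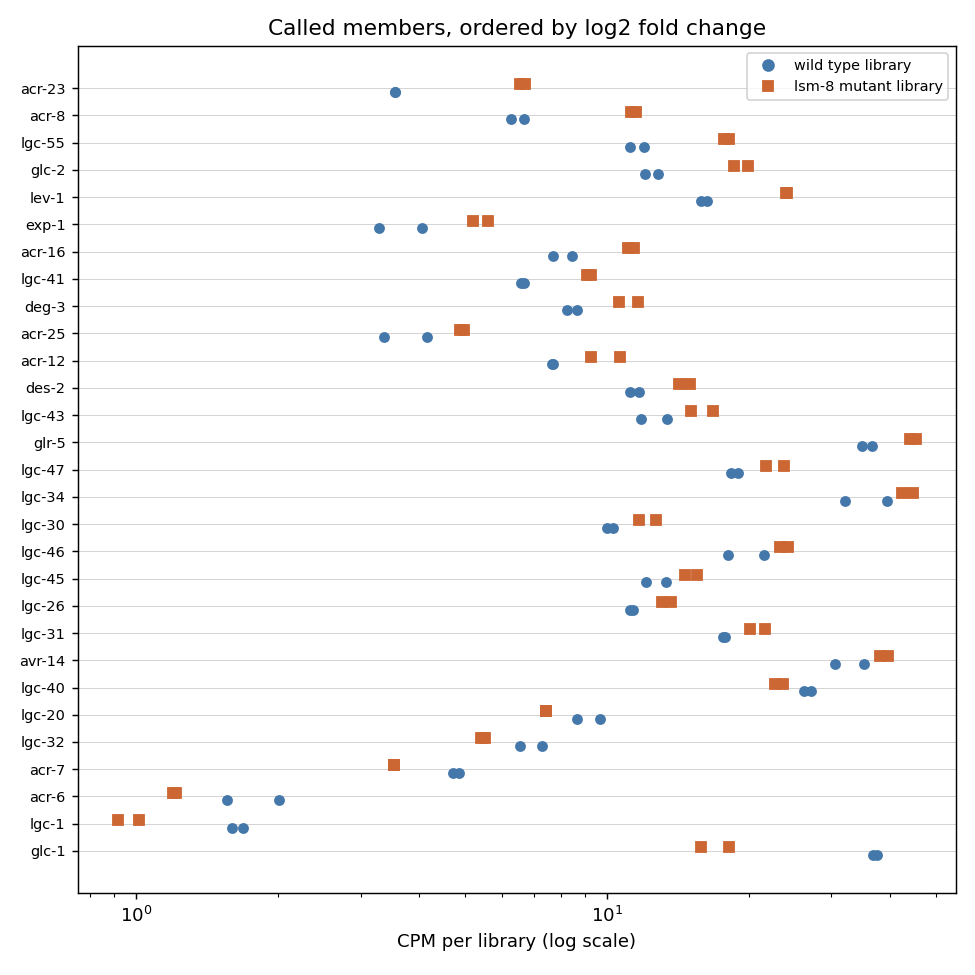
CPM on a log scale (x axis) in each of the 4 libraries for the 29 called members (y axis), ordered by log2 fold change from acr-23 at the top to glc-1 at the bottom. Circles are wild-type and squares are lsm-8 mutant libraries; in each row the 2 mutant libraries lie on 1 side of both wild-type libraries, which is a property of all called members here.

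The glutamate-gated chloride channel genes moved in both directions, with 2 of 6 higher, 1 lower and 3 not called, and a median of 0.13. These channels are inhibitory, are known from invertebrates and bind ivermectin. The gene glc-1 (WBGene00001591, chromosome V), an alpha subunit in which natural variation alters resistance to avermectins, stood at 37.5 and 36.8 CPM in wild type and at 15.8 and 18.2 CPM in the mutant. The libraries of each genotype were close to each other and far from those of the other. The fall was 2.18-fold (log2 fold change -1.13, SE 0.08, adjusted p = 3.08e-09) and stayed between -1.23 and -1.03 over the alternatives. No other gene in the annotation has an exon overlapping glc-1.

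The gene glc-2 (WBGene00001592, chromosome I), a beta-type subunit, moved the other way, from 12.1 and 12.8 CPM to 19.9 and 18.7 CPM, a 1.55-fold rise (0.63, SE 0.09, adjusted p = 1.49e-05). Its partner on the other strand, F25F8.1, was not called (-0.08, SE 0.07, adjusted p = 0.462). Levels of avr-14, a subunit found in neurons, were 35.1 and 30.6 CPM against 38.04 and 39.6 CPM (0.24, SE 0.07, adjusted p = 0.0195), a call lost without either wild type replicate 2 (log2 fold change 0.14, adjusted p = 0.262) or mutant replicate 2 (0.0894). The pharyngeal muscle subunit gene avr-15 stood at 47.98 and 45.7 CPM against 43.1 and 43.2 CPM, lower in both mutant libraries but not called (-0.12, SE 0.06, adjusted p = 0.181). For glc-3 the log2 fold change was 0.21 (SE 0.09, adjusted p = 0.0903, called with library totals at 0.0333 and with upper quartile scaling at 0.0449), and for glc-4 it was 0.05 (SE 0.07, adjusted p = 0.628), turning to -0.0035 without wild type replicate 2.

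The order of these 6 genes per length therefore differed between genotypes. In wild type glc-1 was highest at 23.6 CPM per kb, followed by glc-4 at 22.4, avr-15 at 18.5, avr-14 at 15.3, glc-2 at 9.37 and glc-3 at 6.22 CPM per kb. The wild-type libraries of glc-1 (23.8 and 23.4 CPM per kb) and of glc-4 (23.1 and 21.6 CPM per kb) lay close together. In the mutant glc-4 was highest at 23.2 CPM per kb, and glc-1, at 10.8, was below avr-14 at 18.02, avr-15 at 17.1 and glc-2 at 14.5 CPM per kb. The share of glc-1 in the summed level per kb of the 6 genes was 24.4% and 25.1% in the wild-type libraries and 11.2% and 12.7% in the mutant libraries, and that of glc-2 was 9.29% and 10.4% against 16.6% and 15.4%.

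**Figure D3:**
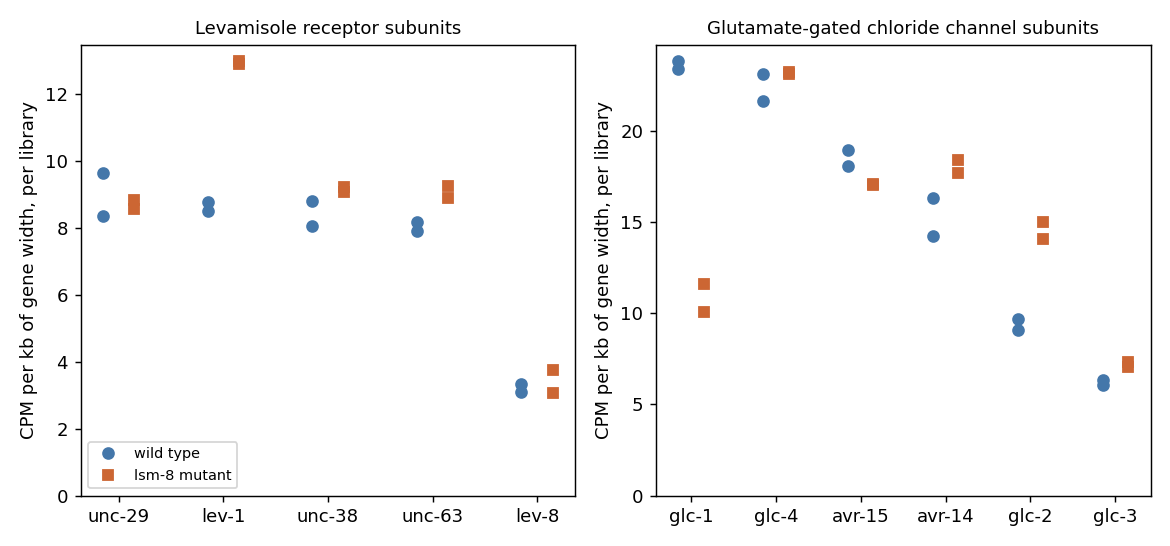
Level per length (CPM per kb of gene width, y axis from 0) in each library for the 5 levamisole receptor genes on the left and the 6 glutamate-gated chloride channel genes on the right. Circles are wild-type and squares are lsm-8 mutant libraries; lev-1 and glc-2 stand higher in the mutant, and glc-1 goes from 23.6 to 10.8 CPM per kb on average.

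Of the 6 genes for GABA receptors and their relatives, 1 rose, 0 fell, 5 were not called, and the median was 0.20. The gene exp-1 (WBGene00001373, chromosome II) encodes a GABA-gated cation channel that drives contraction of the enteric muscles in defecation. It stood at 4.05 and 3.28 CPM in wild type and at 5.59 and 5.19 CPM in the mutant, a 1.47-fold rise (0.55, SE 0.14, adjusted p = 0.00484). Its exons overlap abts-3 on the other strand, which rose less, from 78.8 to 91.9 CPM (0.22, SE 0.06, adjusted p = 0.00744). Whether the 2 genes share reads cannot be told, since the use of strand in counting is not known. The GABA-A type receptor of body wall muscle, unc-49, was the member with the highest CPM, at 93.8 and 97.7 CPM in wild type, against 98.3 and 90.3 CPM in the mutant. Its groups overlapped and it was not called (-0.02, SE 0.06, adjusted p = 0.835), with the sign turned by library totals (0.029), by upper quartile scaling (0.014) and without either wild type replicate 2 or mutant replicate 2. A second GABA-gated cation channel gene, lgc-35, stood at 4.58 and 4.86 CPM against 5.42 and 6.29 CPM (0.31, SE 0.13, adjusted p = 0.0751). It was called with library totals (0.0375), upper quartile scaling (0.0472) and without mutant replicate 1 (0.0365). The related lgc-36, lgc-37 and lgc-38 had log2 fold changes from 0.07 to 0.53, and lgc-36 was called without wild type replicate 2 (log2 fold change 1.27, adjusted p = 0.0449).

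The 4 genes grouped here as monoamine-gated were lgc-50, lgc-53, lgc-55 and mod-1. Of these, 1 rose, 0 fell and 3 were not called, with a median of 0.09. The gene lgc-40, whose product also responds to serotonin, was counted among the other lgc genes and was called lower, as given below with its limits. The gene lgc-55 (WBGene00013746, chromosome V) encodes a tyramine-gated chloride channel that acts in the escape response. It rose from 11.2 and 12.0 CPM to 17.8 and 18.2 CPM, a 1.55-fold change (0.63, SE 0.09, adjusted p = 1.54e-05). The genes of this group for serotonin-gated channels, lgc-50 and mod-1, were not called. Per length, the cation channel gene lgc-50 had the highest wild-type level of all members, 27.2 CPM per kb, with 41.0 and 40.7 CPM against 39.2 and 40.1 CPM (-0.04, SE 0.06, adjusted p = 0.657, and 0.0065 with library totals). Exon sequence of lgc-50 overlaps trd-1 on the other strand, a more abundant gene with a wild-type mean of 133.8 CPM. The partner trd-1 was not called (-0.10, SE 0.06, adjusted p = 0.194). If strand was not used in counting, the level and rank of lgc-50 may include reads of trd-1. The serotonin-gated chloride channel gene mod-1 stood at 16.8 and 17.4 CPM against 18.2 and 18.4 CPM (0.10, SE 0.08, adjusted p = 0.384). The dopamine-gated chloride channel gene lgc-53 had overlapping groups (0.09, SE 0.12, adjusted p = 0.626).

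In the group of acetylcholine-gated chloride channels 2 of 4 genes rose, 0 fell, 2 were not called, and the median was 0.15. The gene lgc-46 stood at 21.6 and 18.1 CPM in wild type and at 24.3 and 23.3 CPM in the mutant (0.26, SE 0.08, adjusted p = 0.0278). That call was lost without either wild type replicate 2 (log2 fold change 0.13, adjusted p = 0.338) or mutant replicate 1 (0.0906). Levels of lgc-47 were 18.3 and 19.004 CPM against 23.8 and 21.8 CPM (0.29, SE 0.08, adjusted p = 0.00954, and 0.108 without mutant replicate 1). The genes lgc-48 and lgc-49 had log2 fold changes of -0.11 and 0.03.

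The ionotropic glutamate receptor genes of the AMPA, kainate and NMDA types had 1 of 10 members higher and 0 lower, with a median of -0.08, beside 13.5% higher and 14.8% lower over all tested genes. No difference between classes was tested. The gene glr-5 (WBGene00001616, chromosome V), a non-NMDA subunit, rose from 36.6 and 34.8 CPM to 44.1 and 45.3 CPM (0.32, SE 0.06, adjusted p = 0.000882). The AMPA-type subunit gene glr-1, which acts in the command interneurons that set the direction of crawling, stood at 14.6 and 13.99 CPM against 16.1 and 16.2 CPM (0.18, SE 0.08, adjusted p = 0.131, called with library totals at 0.0474). The most abundant of these genes per length, glr-4, was at 51.5 and 53.5 CPM against 52.8 and 56.7 CPM (0.06, SE 0.06, adjusted p = 0.535, and -0.0014 with the correction for gene length). The gene glr-3, which also serves as a cold receptor in a sensory neuron, was at 5.71 and 5.48 CPM against 4.72 and 4.18 CPM (-0.33, SE 0.13, adjusted p = 0.0593). It was called with the length correction (0.0359) and without mutant replicate 1 (0.0460).

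Neither NMDA-type gene was called in the main analysis, and they differed in sign. The gene nmr-1 was at 3.47 and 3.62 CPM against 3.65 and 4.44 CPM (0.19, SE 0.14, adjusted p = 0.371), and nmr-2 at 11.2 and 11.6 CPM against 10.2 and 9.76 CPM (-0.19, SE 0.09, adjusted p = 0.135, and 0.0425 with the length correction). Groups overlapped for glr-2, glr-4, glr-7 and glr-8. The pharyngeal subunit genes glr-7 and glr-8 were scarce, at 0.872 and 1.60 CPM per kb in wild type.

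The largest class was that of the 45 other lgc genes, of which 40 could be tested. Among these, 7 rose, 4 fell, 29 were not called, and the median was 0.07. The ligands of many are not known. The gene lgc-41 (WBGene00008022, chromosome X), which encodes a betaine-gated chloride channel, rose from 6.57 and 6.65 CPM to 9.08 and 9.24 CPM, a 1.39-fold change (0.47, SE 0.10, adjusted p = 0.00196). An overlapping gene on the other strand, C39B10.1, fell over the same libraries (-0.32, SE 0.09, adjusted p = 0.0152). Both channels named here as betaine-gated, acr-23 and lgc-41, were thus higher in the mutant, which was noticed after their values were seen.

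The gene lgc-34 stood at 39.4 and 32.1 CPM in wild type and at 44.7 and 42.3 CPM in the mutant (0.28, SE 0.08, adjusted p = 0.0156), and its rise rested on wild type replicate 2, without which it was 0.14 (adjusted p = 0.247). It had the highest mutant level per length of all members, 31.7 CPM per kb. Levels of lgc-43 were 13.4 and 11.8 CPM against 15.1 and 16.8 CPM (0.34, SE 0.09, adjusted p = 0.0103), a call lost without either wild type replicate 2 (0.0832) or mutant replicate 2 (0.0966). The 4 other calls of higher level were weaker, with log2 fold changes of 0.27 for lgc-30, 0.25 for lgc-45, 0.25 for lgc-26 and 0.24 for lgc-31. Whichever library was left out, that of lgc-26 was lost (adjusted p from 0.0738 to 0.221). Those of lgc-30 and lgc-31 were lost without wild type replicate 1 (0.0622 and 0.0819), wild type replicate 2 (0.122 and 0.0583) or mutant replicate 2 (0.257 and 0.231). That of lgc-45 was lost without wild type replicate 2 (0.264), mutant replicate 1 (0.0518) or mutant replicate 2 (0.224). DESeq2 called none of these 4 genes. Exons of lgc-31 overlap F21A3.3 on the other strand, which also rose (0.39, SE 0.09, edgeR adjusted p = 0.00424). These genes may share reads if strand was not used in counting. Among genes not called, lgc-28 was called with library totals (log2 fold change 0.35, adjusted p = 0.0371) and upper quartile scaling (0.33, adjusted p = 0.0461), and lgc-52 without mutant replicate 2 (0.57, adjusted p = 0.0400).

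The falls in this class were those of lgc-1, lgc-32, lgc-20 and lgc-40. Levels of lgc-1 were 1.69 and 1.60 CPM in wild type and 0.917 and 1.01 CPM in the mutant (-0.77, SE 0.21, adjusted p = 0.0111, 0.0597 without mutant replicate 1 and 0.0520 with DESeq2). An exon of nhr-57, a nuclear hormone receptor gene, overlaps lgc-1 on the same strand and fell by a similar amount, from 16.6 to 9.36 CPM (-0.83, SE 0.09), so reads of lgc-1 cannot be told apart from those of nhr-57 with certainty. Levels of lgc-32 were 6.55 and 7.29 CPM against 5.39 and 5.51 CPM (-0.34, SE 0.12, adjusted p = 0.0315), and those of lgc-20 were 8.63 and 9.65 CPM against 7.43 and 7.45 CPM (-0.30, SE 0.10, adjusted p = 0.0398). Both calls were lost without wild type replicate 2 (0.160 and 0.222), mutant replicate 1 (0.0992 and 0.104) or mutant replicate 2 (0.0631 and 0.0946). They were also lost with library totals (0.0652 and 0.0874), upper quartile scaling (0.0531 and 0.0696) and DESeq2 (0.0828 and 0.0945). The gene lgc-40, whose product responds to serotonin and choline, went from 26.2 and 27.1 CPM to 22.7 and 23.7 CPM (-0.20, SE 0.07, adjusted p = 0.0468). Its call was lost on leaving out any library (adjusted p from 0.0597 to 0.231), with library totals (0.143), upper quartile scaling (0.100) and DESeq2 (0.0892).

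A run of 6 lgc genes, lgc-13 to lgc-18, lies close together on 1 strand of chromosome X, and all 6 were scarce. Those tested did not move together. Levels of lgc-13 were 0.920 and 1.20 CPM against 0.507 and 0.754 CPM (-0.75, SE 0.28, adjusted p = 0.0567), and it was called without wild type replicate 1 (0.0253), without mutant replicate 2 (0.0272) and with no filter (0.0486). Its neighbour lgc-14 was at 0.882 and 0.979 CPM against 1.19 and 1.02 CPM (0.25, SE 0.24, adjusted p = 0.487), and lgc-18 at 0.300 and 0.420 CPM against 0.224 and 0.280 CPM (-0.51, SE 0.43, adjusted p = 0.427). The 3 between them, lgc-15, lgc-16 and lgc-17, did not pass the filter.

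The 5 untested members were lgc-7, lgc-8, lgc-15, lgc-16 and lgc-17. Counts of lgc-7 were 1 and 1 in wild type and 13 and 2 in the mutant, those of lgc-8 were 2 and 1 against 4 and 2, and those of lgc-17 were 1 and 0 against 5 and 7. For lgc-15 they were 7 and 7 against 11 and 10, and for lgc-16 they were 12 and 3 against 8 and 7, in mutant libraries of greater depth. No fold is given for these 5 genes. Another 11 members were tested at a wild-type mean under 1 CPM, and 0 were called by edgeR, 0 by limma voom and 0 by DESeq2. The only unadjusted p under 0.05 among them was that of lgc-19 (0.0413), and lgc-36 was called without wild type replicate 2, as given above.

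**Figure D4:**
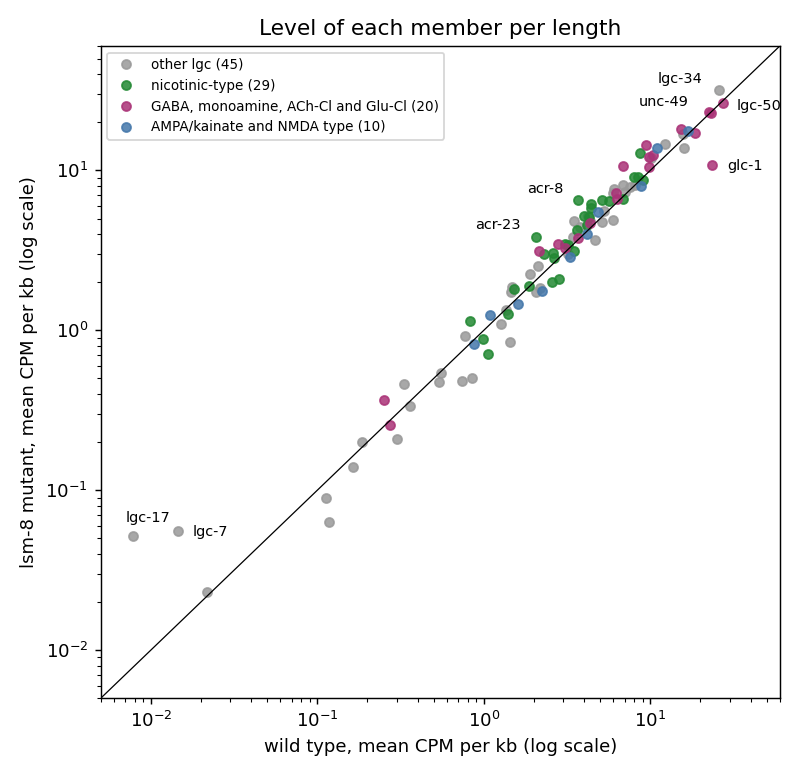
Mean level per length (CPM per kb of gene width) of all members in wild type (x axis) and in the lsm-8 mutant (y axis), both on log scales, coloured by receptor family, with the line of equal levels. Members range from 0.00778 CPM per kb (lgc-17) to 27.2 CPM per kb (lgc-50) in wild type, and glc-1 is the member farthest below the line among those above 10 CPM per kb.

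Levels spanned a wide range in wild type, and the most abundant members came from several classes. Above 20 CPM per kb stood lgc-50 at 27.2 (overlapped by trd-1, as given above), lgc-34 at 26.0, glc-1 at 23.6, unc-49 at 23.1 and glc-4 at 22.4. The next were avr-15 at 18.5, glr-4 at 16.9, lgc-40 at 15.9 and lgc-39 at 15.8 CPM per kb. Of these 9 genes, glc-1 went from rank 3 to rank 17 in the mutant, and the other 8 stayed within the first 11 ranks. Only 59 members reached a wild-type mean of 5 CPM. Among these 59, 19 were higher and 4 lower, so that 39.0% were called, against 38.9% of all 9612 genes at that level, of which 1722 were higher and 2021 lower.

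By chromosome, the members called higher were most frequent on V, with 8 of 24 tested against 14.7% of all genes there, and on IV, with 4 of 13 against 21.8%. On chromosome II 3 of 16 were higher, against 11.1%, on X 4 of 25, against 12.9%, on I 2 of 10, against 9.55%, and on III 1 of 11, against 9.20%. Chromosomes IV and V are those joined in the balancer of the mutant strain, and its part in these counts was not tested. Of all members, 26 have an exon that overlaps another protein-coding gene, and 11 of these 26 were called (42.3%). Of the 73 tested members without such an overlap, 18 were called (24.7%). Over all tested genes 28.2% were called, and the difference by overlap was not tested.

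Genes that act with the receptors gave mixed results. Their counts stand beside 13.5% higher and 14.8% lower over all tested genes, and no difference from these shares was tested. Of 12 genes for assembly and clustering of acetylcholine receptors, 2 rose, 1 fell and 9 were not called. The clustering protein gene lev-10 rose from 75.4 and 73.7 CPM to 87.9 and 86.8 CPM (0.23, SE 0.06, adjusted p = 0.00610), and the auxiliary subunit gene molo-1 rose by 0.26 (SE 0.09, adjusted p = 0.0424). The assembly gene nra-2 fell by 0.18 on the log2 scale (SE 0.06, adjusted p = 0.0295). The call of molo-1 was lost on leaving out any library, with no filter and with DESeq2 (adjusted p up to 0.176), and that of nra-2 without either wild type replicate 2 or mutant replicate 2, with library totals and with upper quartile scaling (up to 0.206). Of 5 genes for clustering of GABA receptors at the neuromuscular junction, 3 rose, 1 fell and 1 was not called. The FERM domain protein gene frm-3 rose from 39.5 and 39.6 CPM to 55.9 and 57.0 CPM (0.51, SE 0.06, adjusted p = 3.79e-06), and the scaffold gene lin-2 rose by 0.31 (SE 0.06, adjusted p = 0.00127). The neuroligin gene nlg-1 fell from 125.1 and 131.6 CPM to 98.2 and 93.2 CPM (-0.42, SE 0.06, adjusted p = 2.07e-05). None of 9 genes for auxiliary subunits and trafficking of glutamate receptors was called, and their median was 0.03.

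Of 6 cys-loop channel genes with other names, 2 rose and 0 fell. These were the proton-gated channel gene pbo-5 (0.36, SE 0.08, adjusted p = 0.00154) and the acetylcholine-gated chloride channel gene acc-2 (0.36, SE 0.13, adjusted p = 0.0430, lost without either wild type replicate 2 or mutant replicate 2, with no filter, limma voom or DESeq2, at adjusted p up to 0.203). On the presynaptic side, 8 of 19 genes for synthesis, loading and clearance of transmitters rose, 2 fell and 9 were not called, with a median of 0.03. The plasma membrane GABA transporter gene snf-11 rose from 50.9 and 48.6 CPM to 74.2 and 72.0 CPM (0.55, SE 0.06, adjusted p = 1.35e-06), and unc-47, which loads GABA into vesicles, rose by 0.46 (SE 0.09, adjusted p = 0.00109). The acetylcholinesterase gene ace-1 fell by 0.25 on the log2 scale (SE 0.06, adjusted p = 0.00611), and the decarboxylase gene bas-1 of serotonin and dopamine synthesis by 0.17 (SE 0.06, adjusted p = 0.0419). The call of bas-1 was lost on leaving out any library, with library totals, with upper quartile scaling and with DESeq2 (adjusted p up to 0.243).

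Markers of the tissues that hold these channels were also compared, since in whole larvae fewer cells of a type and less RNA per cell cannot be told apart. Over all tested genes, 13.5% were higher and 14.8% lower. Of 18 pan-neuronal markers, 5 rose and 0 fell, with a median of 0.07, and their summed level was 3122 and 3116 CPM in wild type and 3199 and 3289 CPM in the mutant. Of 15 body wall muscle markers, 8 rose and 0 fell, with a median of 0.20 and sums of 16211 and 16130 CPM against 18501 and 19353 CPM. One of these, unc-54, shares its 3' UTR with the marker in the mutant allele. Of 7 pharyngeal muscle markers, 3 rose and 0 fell (median 0.12, sums of 4526 and 4415 CPM against 5066 and 5518 CPM). Of 9 glial markers, 3 rose and 1 fell (median 0.13, sums of 371 and 394 CPM against 437 and 437 CPM). Intestinal markers had 3 of 10 higher and 1 lower (median 0.05, sums of 10191 and 10228 CPM against 11030 and 10508 CPM). Most of these sums was asp-1, which was not called, at 6232 and 6261 CPM against 7033 and 6653 CPM. Epidermal markers had 3 of 10 higher and 1 lower (median 0.17, sums of 458 and 465 CPM against 430 and 423 CPM). Most of these sums was ajm-1, at 380 and 384 CPM against 332 CPM in both mutant libraries. Germ line markers had 1 of 6 tested higher and 1 lower (median -0.14, sums of 144 and 145 CPM against 161 and 148 CPM). None of the neuronal, muscle or glial markers was at 0, and the germ line marker nos-2 had 0 to 2 counts in the 4 libraries. The neuronal, muscle, glial, intestinal and germ line sums were higher in both mutant libraries and the epidermal sum was lower. For the epidermal and germ line lists the median log2 fold change had the other sign. The part of these tissues in the members' changes was not tested.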

How the data were processed

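Per the labels, a strand-specific kit for total RNA was used, with 50-base single-end sequencing. The deposited table holds raw counts per gene, not normalized, with a gene width in bases. The submitters' processing notes name Bowtie, edgeR 3.24.0 and build ce10, without roles. How reads were assigned to genes, with which annotation, and whether by strand is not given here. A second deposited table of log2 values was not used here.

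Names, chromosomes, exon overlap and gene order came from the WBcel235 annotation, which is not the build of the counts, so no coordinate is given. It named 19182 of 20392 genes. No sequence is shown.

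Counts were tested with edgeR 4.0.16 (R 4.3.3; TMM, filterByExpr, quasi-likelihood, robust, genotype only), adjusted over 16771 genes. The SE of a log2 fold change is its size over the root of F. Alternatives used DESeq2 1.42.0, limma 3.58.1 (voom), other scaling and filters (none, or 1 CPM in 2 libraries), a loess correction for gene width (span 0.5), a replicate block and the loss of each library, where the lone sample is assumed to vary like the other group. The fit was checked on simulated counts with larger fold changes than most called members had, so the check does not cover changes as small as theirs.

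Members, classes and lists were chosen with earlier results of these data known. Named genes are all called members, the 2 members of each class with the highest wild-type CPM per kb, lsm-8, and from each list of partner genes the 2 largest called rises and falls. Others named were chosen after their values were seen. Of the partner lists, unc-74, nrap-1, ggr-1, ggr-2 and ggr-3 were not matched by name. In the class lists, acr-22 of the DEG-3 group was not matched either. Genes not matched by name may still be in the counts under another name, also as members of another class.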

Additional observations from a re-analysis of the deposited data

How the results depend on the processing

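Under the 13 alternatives, between 3655 and 5652 of all genes were called, against 4737. Members called higher ranged from 14 to 19 without 1 library (14 without mutant replicate 2), against 22, and were 26 with library totals. Members called lower, 7 in the main analysis, were 3 with library totals, upper quartile scaling or the replicate block, 1 with DESeq2 and 3 to 6 without 1 library (3 without mutant replicate 1, 4 without mutant replicate 2). Other alternatives called more members lower: 9 with the gene length correction, 8 with no filter and 9 with the crossed replicate numbers described below. The members' median log2 fold change was 0.15 with library totals, 0.14 with upper quartile scaling, 0.14 with the filter at 1 CPM and 0.11 to 0.13 without 1 library, against 0.10.

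By class, DESeq2 called 1 ACR-16 group gene (3 in the main analysis) and 3 other lgc genes (11). Calls of AMPA or kainate type genes (1) were 2 with library totals or the gene length correction, and those of GABA receptor genes (1) were 2 with library totals or upper quartile scaling. The length correction called 1 NMDA type gene (0). Without 1 library, calls were 0 to 2 for acetylcholine-gated chloride channels (0 without mutant replicate 1), 1 to 3 for the other acr genes (1 without mutant replicate 2), 2 to 8 for the other lgc genes (2 without wild type replicate 2), 2 to 4 for the ACR-16 group, and 1 to 2 for the AMPA or kainate type and for GABA receptors.

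Replicate numbers are not stated to pair the libraries, and the deviations of same-numbered libraries had a correlation of -0.053 over the 16771 genes and -0.11 over the 9621 genes at 5 CPM or more. With the replicate number as a block, 18 members were called, 1 acetylcholine-gated chloride channel gene and 4 other lgc genes among them. With the numbers crossed, an alternative chosen after seeing the data, 31 members were called, 2 of them of the AMPA or kainate type.

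No called gene changed sign. Among genes not called, values turned sign for unc-49 (0.029 with library totals, 0.014 with upper quartile scaling, -0.084 to 0.035 without 1 library), unc-29 (0.0015 with library totals, -0.15 to 0.055), lgc-50 (0.0065 with library totals), glr-4 (-0.0014 with the length correction), glc-4 (-0.0035 to 0.098), lgc-38 (-0.0058 to 0.14) and acr-19 (-0.16 to 0.053). The causes were not tested. No estimate of the smallest detectable change was made for scarce members.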
